A study of Mus musculus with 12 samples.

Results

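The matrix metalloproteases, the Adamts proteases, the Adamts-like proteins and the Timps were followed in whole mouse lungs before and after birth. With earlier results of these data known, the members were chosen by symbol, as all genes named *Mmp*, *Adamts* or *Adamtsl* with a number, together with *Timp1* to *Timp4*. This gave 39 of the 16152 genes in the table of raw counts, made up of 13 *Mmp*, 17 *Adamts*, 5 *Adamtsl* and 4 *Timp* genes. A further 12 genes with such symbols were listed in the table of CPM values (reads scaled to the size of the library), which holds 51825 genes, but not in the count table, and took no part in the tests.

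RNA was sequenced from lungs of C57BL/6 mice at 2 embryonic time-points, E15.5 and E18.5, and at 2 postnatal time-points, P5 and P8, with 3 libraries at each. The animals carried no transgene or treatment according to the labels, and the 3 lungs of a time-point came from one litter, so litter and age cannot be told apart and p-values measure the spread among littermates. Between 41337443 and 53901957 reads were counted per library. Some libraries stood apart in markers of other tissues: E15.5 replicate 2 and P8 replicates 1 and 2 were the 3 highest in thymus and T cell genes, at 50.4, 282 and 497 CPM against 5.09 to 34.2 in the rest, and P8 replicates 1 and 2 were also high in skeletal muscle and oesophagus genes. Where leaving out these 3 libraries ended a call, made one or turned its direction, the value without them is given as well, and P8 is then 1 library, assumed to vary like the other groups.

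Matrix metalloproteases are zinc-dependent enzymes, secreted or held at the cell surface, that cleave collagens, elastin, proteoglycans and many other proteins. Adamts enzymes are secreted relatives with thrombospondin repeats, which process procollagens, cleave large proteoglycans such as versican or attach to the fibrillin network. Adamts-like proteins share the repeats but have no protease domain, and several bind fibrillin microfibrils. Timps bind the catalytic site of these enzymes and block it. In the developing lung this group is known for shaping the matrix around branching airways and around the septa that divide the alveoli.

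The catalytic site is shown first because it is what separates the proteases from the other members. The zinc-binding motif of this enzyme class was searched in the longest coding sequence of each member in GENCODE vM21 (GRCm38). It was found once in 13 of 13 *Mmp* genes and in 17 of 17 *Adamts* genes, and in 0 of 5 *Adamtsl* and 0 of 4 *Timp* genes. The site is 33 bases long, and capitals mark its invariant histidine and glutamate codons together with the codon at position 8 of the 11. The 13 sequences below are from the proteases past both cutoffs from E18.5 to P5.
Mmp8: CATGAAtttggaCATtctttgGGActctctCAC
Mmp9: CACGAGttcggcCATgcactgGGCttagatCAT
Mmp12: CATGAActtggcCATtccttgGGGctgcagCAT
Mmp16: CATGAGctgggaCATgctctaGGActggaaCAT
Mmp23: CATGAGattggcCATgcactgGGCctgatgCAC
Adamts2: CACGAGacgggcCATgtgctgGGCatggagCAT
Adamts3: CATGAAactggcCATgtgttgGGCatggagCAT
Adamts17: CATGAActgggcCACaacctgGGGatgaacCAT
Adamts18: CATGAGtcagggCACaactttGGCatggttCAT
Adamts1: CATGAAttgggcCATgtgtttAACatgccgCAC
Adamts8: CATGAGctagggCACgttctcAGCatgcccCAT
Adamts15: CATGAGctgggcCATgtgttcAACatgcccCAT
Adamts20: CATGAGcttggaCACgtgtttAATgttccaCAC

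Codon 8 was a glycine codon in all 13 *Mmp* genes and in 11 of the *Adamts* genes. In 5 *Adamts* genes (*Adamts1*, *Adamts4*, *Adamts9*, *Adamts15* and *Adamts20*) it was an asparagine codon, and in *Adamts8* it was a serine codon. These 6 are all proteases of the proteoglycan-cleaving group, in which *Adamts5* alone kept the glycine codon. The gene structure also divided the families: the 33 bases lay within 1 exon in all 13 *Mmp* genes and were split between 2 exons in all 17 *Adamts* genes. In *Mmp9* they were found in exon 8 at chr2:164951133-164951165 (plus strand), in *Mmp12* in exon 5 at chr9:7352914-7352946 (plus strand), in *Mmp8* in exon 5 at chr9:7563086-7563118 (plus strand), in *Mmp16* in exon 5 at chr4:18051748-18051780 (plus strand) and in *Mmp23* in exon 5 at chr4:155651528-155651560 (minus strand). In *Adamts18* the site began in exon 8 and ended in exon 9, at chr8:113767168-113771052 (minus strand), and in *Adamts2* it joined exons 7 and 8 at chr11:50775403-50776134 (plus strand). For *Adamts3*, *Adamts1*, *Adamts8* and *Adamts20* the stretches, introns included, were chr5:89707433-89707818 (minus strand), chr16:85799191-85799545 (minus strand), chr9:30952721-30953378 (plus strand) and chr15:94353678-94355296 (minus strand). Those of *Adamts15* and *Adamts17* were chr9:30911255-30911690 (minus strand) and chr7:66968898-67002473 (plus strand).

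Levels are given as CPM after normalisation by the trimmed mean of M-values (TMM), divided by the length of the gene's exons in kb, so that genes can be compared. All 39 members had at least 1 CPM in at least 3 libraries and entered the test. *Mmp8*, *Mmp9* and *Mmp12* met this filter through postnatal libraries alone, and *Adamts18* met it only with its embryonic libraries. Their mean levels over the 12 libraries ran from 0.17 CPM per kb for *Mmp12* to 112 for *Mmp2*, and the 5 highest (*Mmp2*, *Timp2*, *Mmp14*, *Mmp15* and *Mmp11*) held 64.4% of the summed level of all 39. The other members were spread below, and 7 had a mean under 1 CPM per kb. Fewer cells of a type and less RNA per cell cannot be told apart in whole lungs, for any of the levels given here.

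**Figure D1:**
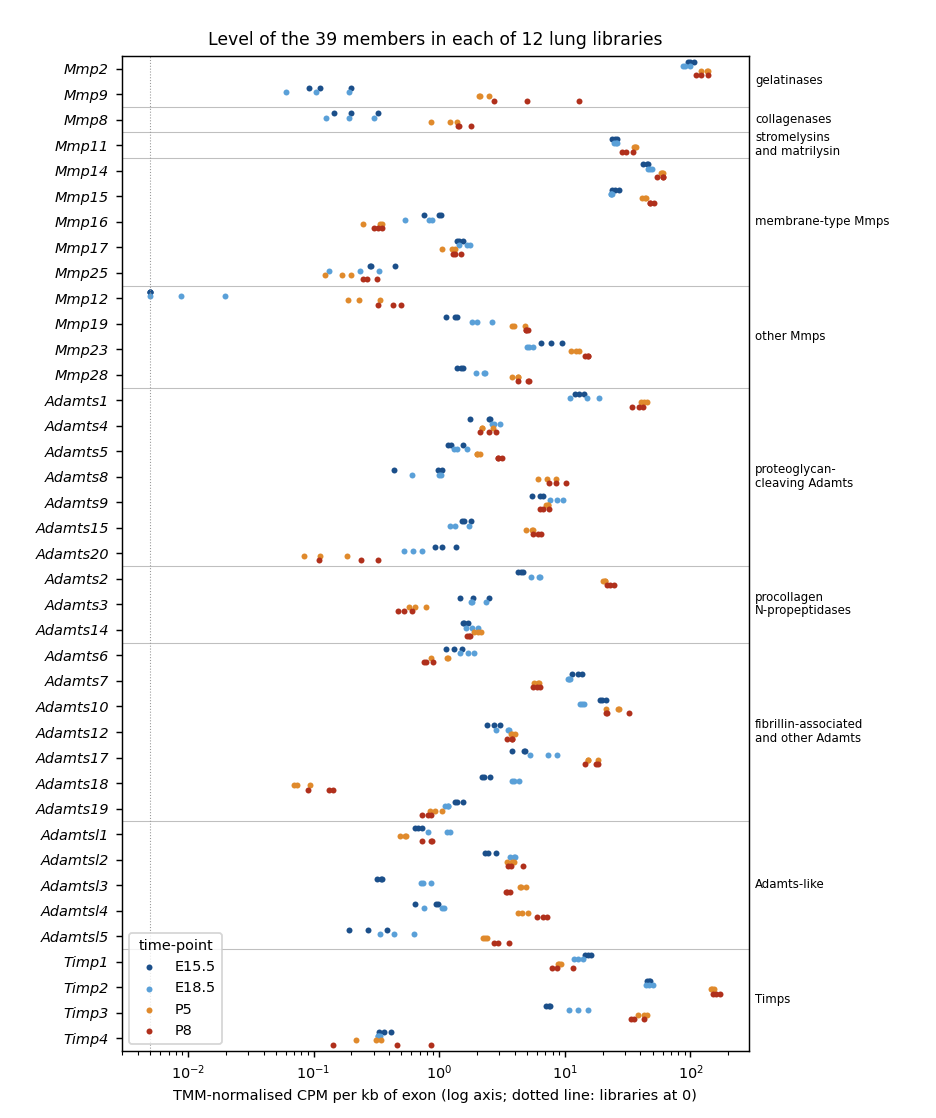
Level of each of the 39 members in each of the 12 libraries, in TMM-normalised CPM per kb of exon on a log axis, grouped by role, with 1 point per library coloured by time-point. *Mmp2* and *Timp2* lie furthest to the right, and *Adamts18* has its postnatal points to the left of its embryonic ones, between 0.0700 and 0.143 CPM per kb.

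The summed level of the members was steady before birth and higher after it. It was 362 ± 9.43 CPM per kb in the E15.5 libraries and 364 ± 20.7 in the E18.5 libraries, then 656 ± 20.5 at P5 and 667 ± 51.8 at P8 (SD, n = 3). Between the means at E18.5 and P5 the sum differed by a factor of 2.74 for the *Timp* genes, 1.74 for *Adamts* and 1.47 for *Mmp* genes. The *Timp* sum was mostly *Timp2*, with a mean of 47.0 CPM per kb at E18.5 and 149 at P5, and *Timp3*, with 13 and 42.0, while *Timp1* and *Timp4* were not higher at P5. The share of the inhibitors in the summed level went from 20.1% ± 0.376 at E18.5 to 30.6% ± 0.0546 at P5, and that of the *Mmp* genes from 55.4% ± 1.0 to 45.1% ± 0.28 (SD, n = 3). The *Adamts* share was 22.6% ± 1.15 at E18.5 and 21.9% ± 0.251 at P5, a difference smaller than its spread at E18.5. The *Adamtsl* genes were a small part throughout, at 1.29% ± 0.15 at E15.5 and 2.71% ± 0.168 at P8. These sums were left untested, since an exact two-sided permutation test of 3 libraries against 3 cannot go below 0.1.

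**Figure D2:**
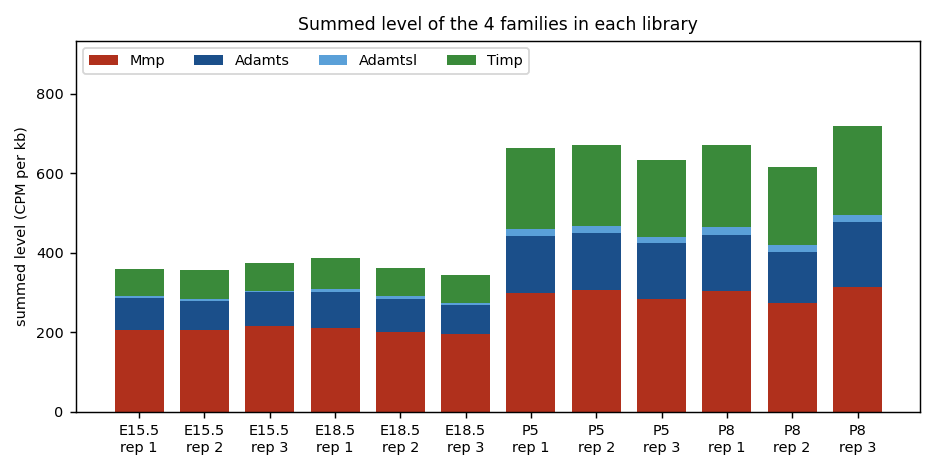
Summed level of the *Mmp*, *Adamts*, *Adamtsl* and *Timp* genes in each of the 12 libraries, in CPM per kb, stacked by family. The 6 postnatal bars are all higher than the 6 embryonic ones, with a mean of 656 CPM per kb at P5 against 364 at E18.5, and the *Timp* part takes 30.6% at P5.

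Of the 3 adjacent intervals, the one that spans birth, from E18.5 to P5, held the most calls. It also covers more days than either of the others, with no library in between. Birth and the longer time cannot be told apart. A gene was called when its edgeR FDR was under 0.05 and its log2 fold change above 1 in either direction. Of the 39 members, 19 were called in this interval, against 26.8% of all 15994 genes tested. The calls were 14 higher at P5 (17.5% of all genes) and 5 lower (9.34%). Among these, *Mmp8*, *Mmp9*, *Mmp12* and *Adamts18* had entered the test only through the libraries where they were high. With the FDR cutoff alone, 33 members passed, 22 higher and 11 lower, where 71.1% of all genes did. The median log2 fold change of the members was 0.51, and that of all genes was -0.0024. By family, 4 of 5 *Adamtsl* genes, 8 of 17 *Adamts* genes, 5 of 13 *Mmp* genes and 2 of 4 *Timp* genes were called.

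**Figure D3:**
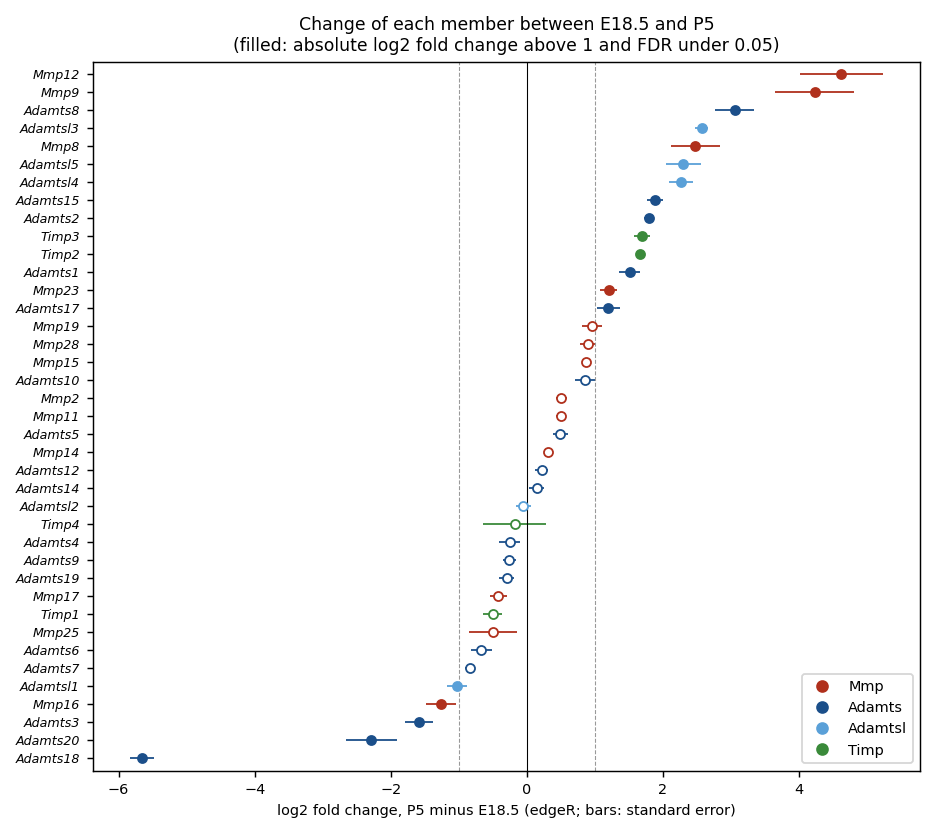
Log2 fold change of each of the 39 members from E18.5 to P5 (positive is higher at P5) with its standard error, from the edgeR fit of all 12 libraries, coloured by family. Filled points are the 19 members past both cutoffs, and dashed lines mark a log2 fold change of 1 in either direction, with *Adamts18* at -5.66 and *Mmp12* at 4.62 as the extremes.

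The largest change of any member from E18.5 to P5 was the fall of *Adamts18*, an Adamts protease with a known role in branching of epithelial organs. It stood at 2.28, 2.21 and 2.52 CPM per kb in the 3 libraries at E15.5 and at 3.92, 4.28 and 3.81 at E18.5. At P5 it was at 0.0700, 0.0738 and 0.0929, and at P8 at 0.133, 0.143 and 0.0901. All 6 postnatal values were far below all 6 embryonic ones. The log2 fold change between E18.5 and P5 was -5.66 (standard error, SE, 0.17, edgeR FDR = 2.9e-10), which is 50.5-fold lower. Before birth the gene had moved the other way, with a log2 fold change of 0.78 from E15.5 to E18.5 (edgeR FDR = 0.0029).

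*Adamts20*, a close relative of *Adamts9* that cleaves versican, fell as well. Its level was 1.05, 0.918 and 1.36 CPM per kb at E15.5, 0.615, 0.523 and 0.730 at E18.5, 0.0835, 0.113 and 0.184 at P5 and 0.240, 0.325 and 0.110 at P8. The embryonic and postnatal libraries did not overlap, and the log2 fold change across birth was -2.29 (SE 0.37, edgeR FDR = 0.00013). *Adamts3*, a procollagen N-propeptidase that also processes the lymphatic growth factor Vegfc, was at 1.86, 1.47 and 2.5 CPM per kb at E15.5 and 2.36, 1.84 and 1.80 at E18.5, then at 0.572, 0.643 and 0.782 at P5 and 0.471, 0.611 and 0.521 at P8. Its log2 fold change between E18.5 and P5 was -1.59 (SE 0.21, edgeR FDR = 2.2e-05). *Mmp16*, a membrane-type protease, was at 0.832, 0.534 and 0.871 CPM per kb at E18.5 and 0.249, 0.338 and 0.349 at P5, after 0.992, 1.04 and 0.752 at E15.5 and before 0.353, 0.328 and 0.30 at P8, and changed by -1.26 (SE 0.22, edgeR FDR = 0.00023). The last of the 5, *Adamtsl1*, lay at the fold change cutoff, with 1.22, 1.15 and 0.813 CPM per kb at E18.5 and 0.531, 0.543 and 0.485 at P5 (log2 fold change -1.03, edgeR FDR = 5.4e-05). It was at 0.728, 0.640 and 0.676 at E15.5 and 0.877, 0.724 and 0.866 at P8, and its log2 fold change was -0.91, -0.97 and -0.98 without E18.5 replicate 1, E18.5 replicate 2 or P5 replicate 3.

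Genes of cartilage, a tissue that also surrounds the large airways, were lower at P5 too in their sum, though not each of them. The 8 cartilage markers in the count table, of 10 listed, were between 243 and 263 CPM in sum in the E15.5 libraries, 177 and 214 at E18.5 and 38.9 and 53.2 at P5. At P8 they stood at 118 and 165 CPM in replicates 1 and 2 and at 33.2 in replicate 3, and *Adamts20* and *Adamts18* were also higher in replicates 1 and 2 than in replicate 3. Without those 2 libraries and E15.5 replicate 2, the log2 fold change from E15.5 to P8 was -3.42 for *Adamts20* and -4.71 for *Adamts18*, compared with -2.3 and -4.26 with all libraries. *Acan* and *Comp*, which were at most at 1.09 CPM in all embryonic and P5 libraries, were not lower at P5. *Sox9*, which lung epithelial tips also express, made up 37.1 to 56.8 CPM of the sum at E18.5, and without it the sums were 136 to 160.4 CPM at E18.5 and 33.7 to 46.5 at P5. *Hapln1*, the largest part of the sum at E18.5, was at 69.6, 67.8 and 75.2 CPM there and at 24.6, 23.3 and 22.3 at P5. In the P8 libraries *Hapln1* was not higher in replicates 1 and 2 than in replicate 3. Apart from *Sox9*, the other markers were higher in both. The largest excess was in *Col2a1*, at 65.5, 108 and 4.97 CPM in P8 replicates 1 to 3. The part of cartilage in the values from E18.5 to P5 was not tested.

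Among the procollagen N-propeptidases, which trim fibrillar procollagens before they assemble, *Adamts2* moved against *Adamts3*. Its level was 4.45, 4.65 and 4.25 CPM per kb at E15.5 and 6.33, 6.23 and 5.33 at E18.5, and 20.8, 21 and 20.1 at P5 and 22.9, 21.6 and 24.8 at P8. The 3 P5 libraries were close together and all above the E18.5 libraries. The log2 fold change between E18.5 and P5 was 1.79 (SE 0.074, edgeR FDR = 2.1e-09). *Adamts14*, the remaining gene of this group, ranged only from 1.56 to 2.16 CPM per kb over the 12 libraries and was not past the FDR threshold across birth (log2 fold change 0.15, edgeR FDR = 0.25).

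Of the 7 proteases of the proteoglycan-cleaving group, which act on versican and aggrecan, 3 rose past both cutoffs across birth and 1, *Adamts20*, fell, where 17.5% of all genes were called higher and 9.34% lower. *Adamts8*, which is abundant in adult lung, had the largest positive log2 fold change of the *Adamts* genes across birth. Its exons share 10.6% of their bases with a gene on the opposite strand. It was at 0.974, 1.04 and 0.438 CPM per kb at E15.5, 1.03, 1.0 and 0.606 at E18.5, 7.25, 8.51 and 6.12 at P5 and 8.49, 7.46 and 10.1 at P8. No embryonic library came within the postnatal range, and the log2 fold change between E18.5 and P5 was 3.06 (SE 0.29, edgeR FDR = 1.2e-06). *Adamts15* was at 1.80, 1.56 and 1.51 CPM per kb at E15.5 and 1.74, 1.22 and 1.35 at E18.5, and at 5.43, 5.53 and 4.93 and 6.06, 5.63 and 6.51 at P5 and P8. Its log2 fold change across birth was 1.88 (SE 0.12, edgeR FDR = 4.2e-08).

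*Adamts1*, the most abundant *Adamts* gene after birth, was at 12.9, 12.2 and 14.3 CPM per kb at E15.5 and at 18.8, 15.1 and 11 at E18.5, where the 3 libraries differed more than at any other time-point. It reached 45.5, 42.4 and 40.2 at P5 and 38.8, 34.2 and 41.8 at P8, above all embryonic values, with a log2 fold change of 1.51 from E18.5 to P5 (SE 0.15, edgeR FDR = 2.1e-06). The other 3 genes of the group changed less. *Adamts5* was past the FDR threshold with a log2 fold change of 0.49 and *Adamts9* with -0.26, and *Adamts4* was not past it (-0.25, edgeR FDR = 0.17). Over the 12 libraries *Adamts5* ranged from 1.17 to 3.17 CPM per kb, *Adamts9*, with 11.99% of its exon bases shared with genes on the opposite strand, from 5.52 to 9.71 and *Adamts4* from 1.75 to 3.04.

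Of the 7 fibrillin-associated and other *Adamts* genes, 1 rose and 1, *Adamts18*, fell, close to the shares of all genes. *Adamts17*, which is linked to fibrillin and to a syndrome of short stature and lens displacement, was at 4.86, 3.78 and 4.71 CPM per kb at E15.5, 8.63, 7.39 and 5.28 at E18.5, 18.4, 15.3 and 15.2 at P5 and 17.7, 14.4 and 18.3 at P8. Its level already differed before birth (log2 fold change 0.67 from E15.5 to E18.5, edgeR FDR = 0.014) and rose past both cutoffs across birth (1.20, SE 0.16, edgeR FDR = 3e-05). *Adamts10*, its relative in the same syndrome, changed by 0.86 across birth (edgeR FDR = 0.00013), short of the fold change cutoff. *Adamts7* and *Adamts6* were lower at P5 past the FDR threshold, by -0.83 and -0.67, and *Adamts19* by -0.29. *Adamts12* was not past it (edgeR FDR = 0.069). Over all 12 libraries *Adamts7* ranged from 5.54 to 13.6 CPM per kb, *Adamts6* from 0.756 to 1.89, *Adamts19* from 0.728 to 1.56, *Adamts12* from 2.42 to 4.03 and *Adamts10* from 13.3 to 32.2.

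*Adamts10* was also the member with a retained intron that the study lists as differentially spliced in these libraries. Its percent spliced in (PSI), here the percent of reads that keep the intron, is therefore given as a description. PSI was 39.7, 46.5 and 42.0 at E15.5, 43.2, 15.3 and 32.1 at E18.5, 16.4, 23.9 and 26.5 at P5, and 16.1, 22 and 34.8 at P8. The means were 42.7 ± 3.46, 30.2 ± 14, 22.3 ± 5.26 and 24.3 ± 9.57 (SD, n = 3), from 126 to 397 reads per library. All 3 E15.5 libraries were above all 6 postnatal ones, while the E18.5 libraries covered most of the range.

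The Adamts-like genes had the highest share of calls of the 4 families across birth, at 4 of 5, where 26.8% of all genes were called. Of the 4, 3 rose, and *Adamtsl1*, at the fold change cutoff, fell, where 17.5% of all genes were called higher and 9.34% lower. *Adamtsl3* was the only gene of this family called in 2 adjacent intervals. It was at 0.351, 0.346 and 0.321 CPM per kb at E15.5, 0.748, 0.854 and 0.719 at E18.5, 4.44, 4.95 and 4.42 at P5 and 3.48, 3.41 and 3.64 at P8. The difference between E15.5 and E18.5 was 1.19 on the log2 scale (SE 0.10, edgeR FDR = 0.00012), and the one across birth was 2.57 (SE 0.10, edgeR FDR = 1.1e-09). From P5 to P8 it was lower past the FDR threshold, by -0.39 (edgeR FDR = 0.013), so P5 was its highest time-point.

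*Adamtsl4*, which binds fibrillin and is known for holding the lens in place, was at 0.972, 0.937 and 0.639 CPM per kb at E15.5, 1.05, 1.09 and 0.753 at E18.5, 5.08, 4.60 and 4.21 at P5 and 7.19, 6.76 and 5.98 at P8. Its log2 fold change across birth was 2.26 (SE 0.18, edgeR FDR = 2.3e-07), and the one of 0.52 from P5 to P8 was just past the FDR threshold and short of the fold change cutoff (edgeR FDR = 0.049). *Adamtsl5* was at 0.269, 0.386 and 0.193 CPM per kb at E15.5, 0.440, 0.635 and 0.337 at E18.5, 2.40, 2.24 and 2.32 at P5 and 3.6, 2.72 and 2.92 at P8, with a log2 fold change of 2.3 across birth (SE 0.25, edgeR FDR = 4.6e-06). In both genes the postnatal libraries were all above the embryonic ones. *Adamtsl2*, which binds the latent TGF-beta binding protein, was higher at E18.5 than at E15.5 (0.61, edgeR FDR = 0.0035) but not past the FDR threshold across birth (-0.05, edgeR FDR = 0.7), and ranged from 2.3 to 4.63 CPM per kb.

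Of the 13 *Mmp* genes, 4 were called higher and 1 lower across birth, where 17.5% of all genes were called higher and 9.34% lower. *Mmp2*, the gelatinase made by fibroblasts and the member with the highest mean over the 12 libraries, was at 99.99, 95.2 and 107 CPM per kb at E15.5, 99.7, 90.2 and 88.0 at E18.5, 135, 138 and 122 at P5 and 122, 111 and 137 at P8. Its log2 fold change across birth was 0.51 (SE 0.085, edgeR FDR = 0.00016). *Mmp14*, the membrane-type protease that activates Mmp2 together with Timp2, was at 44.9, 42.2 and 45.9, 49.0, 47.8 and 45.6, 57.9, 60.1 and 59.6 and 60.0, 53.8 and 59.9 CPM per kb in time order, and changed by 0.32 (SE 0.059, edgeR FDR = 0.00037). Both were past the FDR threshold and short of the fold change cutoff.

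*Mmp15*, another membrane-type protease, was at 23.7, 27.0 and 25.3 CPM per kb at E15.5 and 23.2, 23.3 and 23.8 at E18.5, and at 44.2, 43.8 and 40.8 at P5 and 47.7, 47.2 and 50.8 at P8 (log2 fold change across birth 0.87, SE 0.059, edgeR FDR = 6.2e-08). *Mmp11*, or stromelysin-3, was at 23.9, 24.9 and 26.0 at E15.5, 25.6, 26.2 and 24.6 at E18.5, 35.7, 36.6 and 36.1 at P5 and 30.8, 28.3 and 34.8 at P8 (0.51, edgeR FDR = 3.3e-05). These 2 genes also had no overlap between the E18.5 and P5 libraries. *Mmp19* and *Mmp28*, both secreted proteases, changed by 0.96 and 0.90 past the FDR threshold, and the exons of *Mmp19* share 28.3% and those of *Mmp28* 12.03% of their bases with genes on the opposite strand. *Mmp17* was lower at P5 by -0.42 (edgeR FDR = 0.011) and *Mmp25* was not past the threshold (-0.50, edgeR FDR = 0.22). Over the 12 libraries *Mmp19* ranged from 1.12 to 5.07 CPM per kb, *Mmp28* from 1.40 to 5.19, *Mmp17* from 1.05 to 1.77 and *Mmp25* from 0.123 to 0.442. *Mmp23*, an *Mmp* that lacks the usual hemopexin domain, was the one gene of moderate level past both cutoffs. It was at 7.80, 9.57 and 6.43 CPM per kb at E15.5, 5.63, 5.01 and 5.16 at E18.5, 11.2, 12.9 and 12.4 at P5 and 15.4, 14.4 and 15.2 at P8, with a log2 fold change of 1.21 across birth (SE 0.12, edgeR FDR = 2.2e-06), after a change of -0.59 between E15.5 and E18.5 (edgeR FDR = 0.0068).

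The *Mmp* genes with the 3 largest positive log2 fold changes across birth, *Mmp12*, *Mmp9* and *Mmp8*, are known from white blood cells. *Mmp25* is as well, but it was not past the FDR threshold and had a negative value. The first 3 were under 1 CPM in each embryonic library and entered the test through postnatal libraries alone. Their entry thus required a higher postnatal level. *Mmp8*, the collagenase of neutrophil granules, was at 0.325, 0.199 and 0.146 CPM per kb at E15.5, 0.193, 0.30 and 0.126 at E18.5, 1.38, 1.22 and 0.867 at P5 and 1.79, 1.42 and 1.44 at P8 (log2 fold change across birth 2.48, SE 0.37, edgeR FDR = 5.6e-05). *Mmp9*, the gelatinase of neutrophils, macrophages and osteoclasts, was at 0.0911, 0.199 and 0.113 at E15.5, 0.191, 0.0605 and 0.104 at E18.5 and 2.48, 2.1 and 2.08 at P5, a log2 fold change across birth of 4.23 (SE 0.58, edgeR FDR = 3e-05). For both genes each P5 library was above each embryonic one.

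*Mmp12*, the macrophage elastase, had 0 reads in all 3 E15.5 libraries and 0, 3 and 7 reads in the E18.5 libraries. It then had 123, 56 and 86 reads at P5 and 144, 164 and 124 at P8, which is 0.336, 0.187 and 0.229 and 0.499, 0.427 and 0.327 CPM per kb. The log2 fold change between E18.5 and P5 was 4.62 (SE 0.61, edgeR FDR = 5.5e-05), and it rests on the 10 reads at E18.5. Set against a floor of 3 reads over the E15.5 group, its level was 3.52-fold higher at E18.5. It was 90.1-fold higher at P5 and 145-fold higher at P8. The floor allows for counting error in the 0 reads at E15.5 alone, not in the later reads, such as the 10 at E18.5, nor for the spread between animals.

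Markers of white blood cells moved in the same interval in their sums, though the macrophage markers *C1qb* and *C1qc* overlapped between the E18.5 and P5 libraries. The 9 neutrophil markers in the count table, of 11 listed, summed to 5.0 to 8.56 CPM at E18.5 and 146 to 225 at P5, after 6.63 to 16.1 at E15.5, and to 490, 406 and 160 CPM in the 3 P8 libraries. *Ltf* alone was at 277, 241 and 20.7 CPM there, and without it the sums at P8 were 214, 165 and 139.6 CPM, against 135 to 214 at P5. The largest part of the sum at P5 was *Lcn2*, at 114, 85.7 and 59.9 CPM. Of the neutrophil markers, *Retnlg* was at 0 in 2 E15.5 libraries, and *Mpo* and *Elane* were not analysed here. All 15 macrophage and monocyte markers were in the table, and none was at 0 in any library. They lay in sum between 117 and 144 CPM in the E15.5 libraries, 113 and 126 at E18.5, 403 and 520 at P5 and 591 and 1033 at P8. *Fabp4*, which fat cells and endothelium also express, was at 243, 432 and 13.8 CPM in the 3 P8 libraries, and without it the sums were 694, 601 and 578 CPM. The part of either cell type in the levels of *Mmp8*, *Mmp9* and *Mmp12* was not tested.

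**Figure D4:**
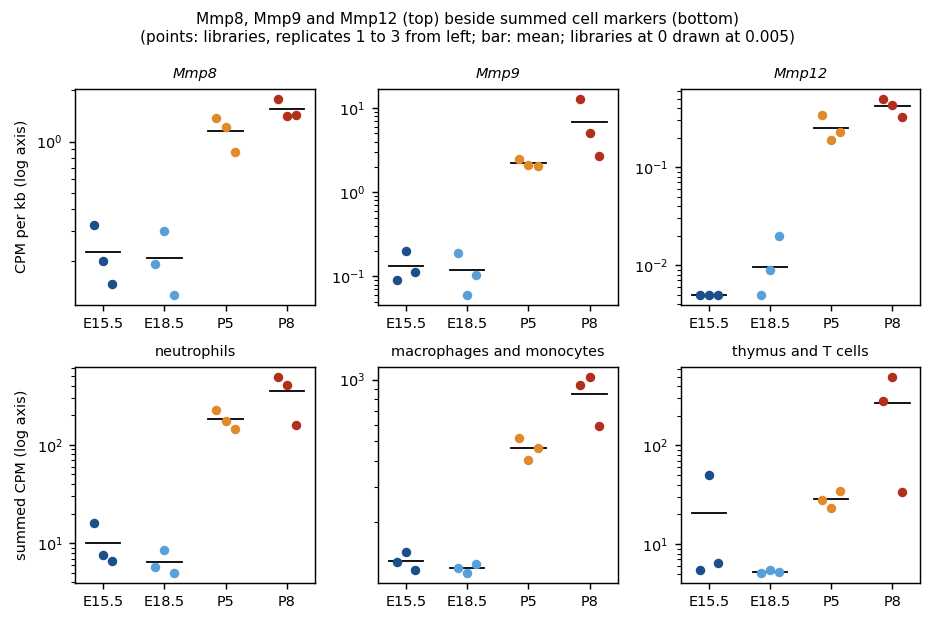
Levels of *Mmp8*, *Mmp9* and *Mmp12* in CPM per kb (top) and summed CPM of the marker genes of neutrophils, of macrophages and monocytes, and of thymus and T cells (bottom), each on a log axis, with 1 point per library, the mean as a bar, and libraries without reads drawn at the bottom. *Mmp9* is spread from 2.72 to 13 CPM per kb at P8, and the thymus markers from 33.7 to 497 CPM.

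*Mmp8* and *Mmp12* belong to a stretch of 427 kb on chromosome 9 (chr9:7272514-7699585, GRCm38) that holds 10 *Mmp* genes, of which these 2 alone were in the count table. The 250 bases before the RefSeq start (GRCm38.p6) were given for 36 of the 51 genes with member symbols, as 39 windows, and 25 of these genes were in the count table. They were searched on both strands for TGANTCA, a binding motif of the AP-1 factors known at several *Mmp* promoters, and on the gene's strand for TATAAA, the TATA box. The AP-1 motif was in 8 of 21 *Mmp* windows and in 0 of 10 *Adamts*, 0 of 4 *Adamtsl* and 0 of 4 *Timp* windows, where 6.7% of all 32851 windows held it. All *Mmp* windows with the AP-1 motif were at genes of the stretch on chromosome 9, and of these genes *Mmp12* alone was in the count table. The *Mmp* windows given outside that stretch held no AP-1 motif. No window was given for *Mmp2*, *Mmp9*, *Mmp16*, *Mmp17* or *Mmp19*, so these were not searched. The TATA box was in 8 of the 21 *Mmp* windows, none of them at a gene in the count table, and in 7.6% of all windows. Of the 13 windows of members called higher at P5, 1 held the AP-1 motif, at the downstream of the 2 starts of *Mmp12*, and 1 held the TATA box, at *Adamts1*. Those windows are shown with the motif in capitals, at chr9:7347124-7347373 (plus strand) and chr16:85803114-85803363 (minus strand).
Mmp12: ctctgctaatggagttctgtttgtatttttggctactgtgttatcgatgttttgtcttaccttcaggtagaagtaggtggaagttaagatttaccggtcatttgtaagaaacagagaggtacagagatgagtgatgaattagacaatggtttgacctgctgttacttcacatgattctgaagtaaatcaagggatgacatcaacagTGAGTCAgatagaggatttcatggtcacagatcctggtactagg
Adamts1: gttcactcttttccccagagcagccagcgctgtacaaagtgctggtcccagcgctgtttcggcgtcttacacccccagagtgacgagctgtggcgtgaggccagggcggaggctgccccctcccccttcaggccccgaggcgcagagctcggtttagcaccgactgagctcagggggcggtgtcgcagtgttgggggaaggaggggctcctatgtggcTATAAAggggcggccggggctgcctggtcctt

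The motif at *Mmp12* begins 44 bases before that start, and the one at *Adamts1* 32 bases before its start. The matches describe the letters in these windows and are not binding data.

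The Timps were divided between 2 that rose past both cutoffs across birth, as 17.5% of all genes did, and 2 that did not. *Timp2*, which both inhibits Mmps and serves the activation of Mmp2, was at 44.9, 47.6 and 46.6 CPM per kb at E15.5, 50.2, 44.2 and 46.8 at E18.5, 149, 153 and 146 at P5 and 159.6, 151 and 173 at P8. The embryonic libraries were level with each other and all postnatal libraries were above them (log2 fold change across birth 1.67, SE 0.066, edgeR FDR = 1.6e-09). *Timp3*, the matrix-bound inhibitor that also blocks Adamts enzymes, was at 7.67, 7.54 and 7.09 at E15.5, 15.3, 12.7 and 10.8 at E18.5, 44.7, 43.1 and 38.1 at P5 and 35.2, 33.8 and 42.7 at P8. It was higher at E18.5 than at E15.5 (0.80, edgeR FDR = 0.0016) and rose by 1.70 across birth (SE 0.12, edgeR FDR = 1.1e-07). Of the exon bases of *Timp3*, 21.3% are shared with *Syn3* on the opposite strand, and reads of the 2 genes cannot be told apart there unless strand was used in the counting.

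*Timp1*, the soluble inhibitor known from inflammation and repair, went the other way within a smaller range. It was at 15.2, 16.2 and 14.4 CPM per kb at E15.5, 11.7, 14 and 12.6 at E18.5, 9.02, 8.76 and 9.39 at P5 and 11.7, 8.63 and 7.83 at P8, with a log2 fold change across birth of -0.50 (SE 0.14, edgeR FDR = 0.0069). *Timp4* was the scarcest, at 0.334, 0.365 and 0.410 at E15.5, 0.325, 0.338 and 0.325 at E18.5, 0.218, 0.312 and 0.344 at P5 and 0.463, 0.860 and 0.143 at P8. Its P8 libraries covered the whole range of the other time-points, and no change was detected across birth (-0.18, SE 0.46, edgeR FDR = 0.74) or between E15.5 and P8 (0.40, SE 0.45, edgeR FDR = 0.43). *Timp4* was highest in P8 replicate 2, the library with the highest thymus markers. Within P8 that library was also the highest in heart muscle markers, at 484 CPM, and in cartilage markers, at 165 CPM. In the E15.5 libraries, where *Timp4* was at 0.334, 0.365 and 0.410, heart muscle markers were at 1331, 1671 and 74.1 CPM. Cartilage markers were at 253, 243 and 263 CPM there. The part of these tissues in the level of *Timp4* was not tested. Without the 3 libraries high in thymus markers the log2 fold change of *Timp4* from E15.5 to P8 was -1.35. P8 was then replicate 3 alone, the library lowest in *Timp4*.

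**Figure D5:**
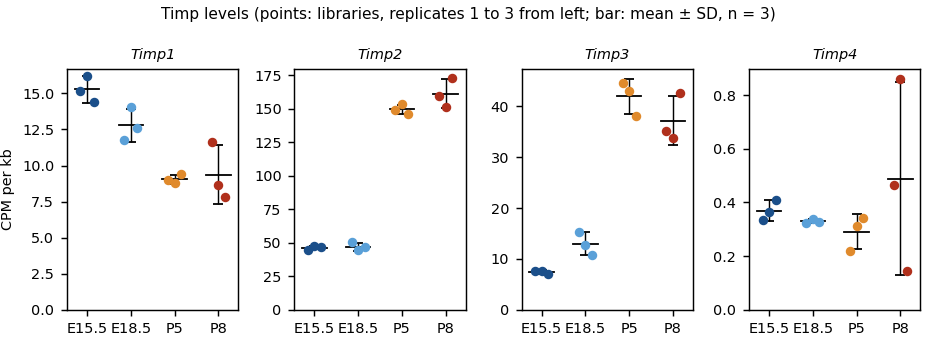
Levels of the 4 *Timp* genes in CPM per kb, with 1 point per library and the mean ± SD (n = 3) of each time-point, on axes that start at 0. *Timp2* and *Timp3* step up between E18.5 and P5, *Timp1* is lower at P5 and P8, and the P8 libraries of *Timp4* run from 0.143 to 0.860.

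Before birth few members moved. Of the 39, 2 were called from E15.5 to E18.5, both higher, where 3.04% of all genes were called (1.59% higher and 1.46% lower). They were *Adamtsl3* and *Mmp12*, and the call of *Mmp12* rests on the 10 reads at E18.5 against 0 at E15.5 (edgeR FDR = 0.046) and was lost in 13 of the 18 alternative fits that gave it a value, with edgeR FDR = 0.12 without the 3 libraries high in thymus genes. With the FDR cutoff alone 13 members passed, 11 higher and 2 lower, against 21.5% of all genes. The 2 lower ones were *Adamts10* (-0.54, edgeR FDR = 0.018) and *Mmp23*. The median log2 fold change of the members was 0.13, and that of all genes -0.0084. Heart muscle markers differed among the E15.5 libraries, at 1331, 1671 and 74.1 CPM in replicates 1 to 3, and their part in these values was not tested.

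From P5 to P8, 1 member was called, *Mmp9*, where 2.96% of all genes were (2.88% higher and 0.0875% lower). Its level at P8 was 13, 5.0 and 2.72 CPM per kb in replicates 1, 2 and 3, a log2 fold change of 1.63 (SE 0.47, edgeR FDR = 0.032). All 3 libraries were above the P5 range of 2.08 to 2.48, but the call rests on replicate 1: without it the log2 fold change was 0.79 (edgeR FDR = 0.19). The call also failed the FDR threshold without any single P5 library. The 11 thymus and T cell markers in the count table, of 12 listed, summed to 282, 497 and 33.7 CPM in the 3 P8 libraries, and the 7 skeletal muscle and oesophagus markers to 1396, 749 and 10.3 CPM. In the bone and osteoclast list, added after the data were seen, the 9 markers in the count table, of 11, lay in sum between 176 and 191 CPM at P5 and at 223, 149.7 and 160.1 CPM in P8 replicates 1 to 3. *Phex* made up most of that sum at P5, at 146, 140 and 141 CPM. It was lower at P8, at 88.9, 83.0 and 114 CPM, and alone in the list was not highest in P8 replicate 1. In the P8 libraries *Ctsk* was at 56.4, 27.8 and 22.1 CPM, *Acp5* at 35.9, 22.3 and 11.6 and *Ibsp* at 14.8, 1.85 and 1.05. The library highest in *Mmp9* was also the highest in each of these. Their part in the level of *Mmp9* was not tested. Without E15.5 replicate 2 and P8 replicates 1 and 2, the log2 fold change of *Mmp9* from P5 to P8 was 0.30 (edgeR FDR = 0.7), with P8 then 1 library that is assumed to vary like the others. The count of calls from E18.5 to P5 was 19 in that fit as well.

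With the FDR cutoff alone 6 members passed from P5 to P8, 5 higher and 1 lower, against 18% of all genes. Besides *Mmp9* and *Adamtsl4*, the higher ones were *Adamts5* (0.57, edgeR FDR = 0.0073), *Adamtsl1* (0.66, edgeR FDR = 0.013) and *Adamts18* (0.62, edgeR FDR = 0.033), and *Adamtsl3* was lower. Without the 3 libraries high in thymus genes none of the 6 passed in the same edgeR test, with FDR from 0.06 for *Adamts5* (log2 fold change 0.65) to 0.71 for *Adamts18* (0.20). P8 was then 1 library, and the values of *Adamts5* and *Adamtsl1* (0.75, edgeR FDR = 0.08) were no smaller than with all libraries.

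Over the whole span from E15.5 to P8, 21 members were called, 16 higher and 5 lower, where 32.3% of all genes were (20.9% higher and 11.5% lower). The lower ones were *Adamts18*, *Adamts20*, *Adamts3*, *Mmp16* and *Adamts7*, the last with a log2 fold change of -1.08 (edgeR FDR = 6.9e-08). With *Adamts7*, 3 higher members were called over the whole span and in no adjacent interval: *Mmp28* (1.70, edgeR FDR = 4.2e-08), *Mmp19* (1.95, edgeR FDR = 1.6e-07) and *Adamts5* (1.19, edgeR FDR = 9.3e-07). *Mmp23*, called across birth, was short of it here at 0.92. Without the 3 libraries high in thymus genes the log2 fold changes of *Mmp23*, *Mmp15* and *Timp4* were 1.12, 1.08 and -1.35, beyond the fold change cutoff. P8 was then 1 library. Each of the 4 comparisons shares libraries with others.

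Other genes of the same pathway were taken from 4 lists and showed changes in the interval that spans birth. Of 9 activators and convertases tested, 4 rose and 1 fell, and of 8 other inhibitors and clearance genes 4 rose and 0 fell. Among 17 related metalloproteases 8 rose and 1 fell, and among 18 substrates and cofactors 7 rose and 1 fell. Of all genes, 17.5% were called higher and 9.34% lower in this interval. The largest changes were *Hgf* (log2 fold change 3.32, a growth factor activated by proteolysis), *Fbn2* (-3.22, the fetal fibrillin), *Pcolce2* (2.99, an enhancer of procollagen processing), *Slpi* (2.96, an inhibitor of leukocyte elastase), *Mme* (2.91, neprilysin), *Phex* (2.69, an endopeptidase of the same clan), *Pappa* (-2.39, a protease of Igf binding proteins) and *Vwf* (2.38, the substrate of Adamts13), with edgeR FDR of 1.6e-05 or lower for each. From E15.5 to E18.5 the 4 lists together had 2 genes higher and 2 lower, and 5 were higher and 0 lower in the last interval, of 52 tested, where 3.04% and 2.96% of all genes were called. General markers of lung cells also differed across birth in their sums. The 11 fibroblast and smooth muscle markers summed to 5201 to 5678 CPM at E18.5 and 6168 to 6856 at P5. Of these, *Col1a1* and *Pdgfra* were lower in each P5 library than in each E18.5 library, and *Acta2* and *Wnt2* overlapped. The other markers of that list were higher at P5 without overlap, with the largest rise in CPM in *Tgfbi*. The 8 endothelial markers summed to 1302 to 1471 CPM at E18.5 and 2993 to 3204 at P5. Lung identity was checked with 14 markers, all of them above 0 in every library.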

How the data were processed

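RNA from whole lungs of C57BL/6 mice, 3 libraries at each of 4 time-points, was made into TruSeq libraries and sequenced as paired ends. The authors aligned reads to mm10 with TopHat2 2.1.1 and Bowtie2 2.3.4 and counted them on Gencode vM14 genes with HTSeq 0.10.0; the strand setting of the counting is not given in the sources used here. The deposited counts are raw and limited to genes with at least 1 CPM in 3 samples. The deposited CPM values are scaled to the mapped reads of each library and hold more genes. The deposited PSI values are the percent of reads that keep an alternative sequence, from VAST-TOOLS.

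Here, counts were tested in edgeR 4.0.16 (R 4.3.3) with TMM factors, the quasi-likelihood test, 1 mean per time-point over all 12 libraries and a filter of 1 CPM in at least 3 libraries, with Benjamini-Hochberg adjustment over 15994 genes. Called means an absolute log2 fold change above 1 and FDR under 0.05. The steps were tested on simulated counts. CPM per kb used union exon lengths of GENCODE vM21 (GRCm38). Genes named with values in every library are members called in an adjacent interval, the Timps and the 5 most abundant members, and genes outside the members come from the pathway lists, at most 8 per interval. A fold against a group without reads uses a floor of 3 reads over the group, 0.0205 CPM at E15.5. Alternatives were other scalings, no filter, DESeq2 1.42.0, the replicate block, only the 6 libraries compared, and libraries left out. The members and lists were chosen with earlier results of these data known, and 1 marker list was added after the data were seen.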

Additional observations from a re-analysis of the deposited data

Results flagged for a closer look

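The CPM table lists 12 genes with member symbols that were not in the count table, and 7 of them had more reads in at least 1 library than the 3 that a count of 0 allows. The largest was *Mmp13*, a collagenase of bone and cartilage, with 10.7 CPM in P8 replicate 1 against 1.40 and 0.920 CPM in P8 replicates 2 and 3 and at most 0.394 CPM at the other time-points. The same library was highest in *Mmp9*, and *Ibsp*, a bone matrix gene, stood there at 14.8 CPM against 1.85 and 1.05 CPM in the other P8 libraries. The relation of *Mmp13* to these genes was not tested. *Mmp3* reached 0.768 CPM in P8 replicate 2, *Adamts13*, the protease of von Willebrand factor, 0.690 CPM in P8 replicate 3, and *Adamts16* 0.393 CPM in E15.5 replicate 2. *Mmp24* and *Mmp27* each reached 0.310 CPM in P8 replicate 2, and *Mmp21* reached 0.099 CPM in P5 replicate 3, from 6 reads. *Adamts13* and *Mmp24* were over 3 reads in all 12 libraries. *Mmp7* and *Mmp10* had at most 2 reads in any library, and *Mmp1a*, *Mmp1b* and *Mmp20* were listed at 0 in all 12.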

How the results depend on the processing

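Of 2960 values that alternative fits gave for single members, 2928 kept their direction where called and their side of the cutoffs, 22 lost a call, 9 gained one and 1 turned its direction. That one was *Timp4* from E15.5 to P8, at -1.35 without the 3 libraries high in thymus genes. From E18.5 to P5, 18 to 19 members were called with single libraries left out and 33 with the FDR cutoff alone. From E15.5 to E18.5 the count of 2 became 13 with the FDR cutoff alone, 1 with the replicate block, 1 with only the 6 libraries compared, where *Mmp12* did not pass the filter, and 1 to 2 with single libraries left out. Leaving out any single library but E18.5 replicate 1, which held no reads of *Mmp12*, ended its call, with edgeR FDR from 0.052 to 0.12. From P5 to P8 the count of 1 became 6 with the FDR cutoff alone, 0 with only the 6 libraries compared, 0 without the 3 libraries high in thymus genes, and 0 to 3 with single libraries left out. The 3 calls came without P8 replicate 3, where *Adamts20* (1.13) and *Timp4* (1.17) joined *Mmp9*. Over the whole span the count of 21 became 32 with the FDR cutoff alone, which 12197 of all 15994 genes passed. It was 21 to 22 with single libraries left out. The replicate block changed no other count of calls. Its numbers do not pair the samples: deviations of same-numbered libraries correlated between -0.298 and 0.271, over 0.1 in 4 of 18 pairs.

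Without division by exon length, the shares of the families in time order, from E15.5 to P8, were 35.7%, 36.2%, 32.8% and 32.8% for *Adamts*, 2.03%, 3.01%, 3.06% and 3.30% for *Adamtsl*, 47.9%, 44.8%, 36.2% and 36.1% for *Mmp* and 14.3%, 16.1%, 27.9% and 27.7% for *Timp* genes. The rise of the *Timp* share and the drop of the *Mmp* share from E18.5 to P5 kept their direction, as they did with the CPM deposited by the authors. Against TMM, RLE factors and plain library size shifted the median log2 fold change of all genes by at most 0.0704 in size. Without the 3 libraries high in thymus genes P8 is a single library, assumed to vary like the other groups. Depth limits the scarce genes: 3 reads correspond to 0.0482 to 0.0619 CPM in a library.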
